A study of Mus musculus with 34 samples.

Results

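The 9 genes described are enzymes that make fatty acids, lengthen them and put double bonds into them: Acly, Acaca, Fasn, Elovl6, Elovl5, Scd1, Scd2, Fads2 and Fads1. They are 9 of the 19938 genes that the arrays measured through a probeset with a single gene symbol. The members were chosen by symbol, with earlier results of these data known, and where a symbol had several probesets the one read was selected on its mean signal over all 34 arrays. That mean is the only measured value in the rule and it is not tested. Acaca was the only member with a second probeset.

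The RNA came from the mouse lines Bin-2 and 8093, both pre-B acute lymphoblastic leukaemias established from BCR/ABL transgenic mice, on a mixed background for Bin-2 and on inbred C57Bl/6J for 8093. In all groups the cells grew with IL-3 in the medium on a layer of irradiated mouse embryonic fibroblasts, and loosely attached and floating cells were harvested. Bin-2 was kept in 50 nM nilotinib, which blocks the ABL kinase, or in 0.25 µM lonafarnib, which blocks farnesyltransferase, and 8093 in 20 nM nilotinib or 1 µM lonafarnib (the labels do not use the same unit for lonafarnib throughout, and µM is the unit of the treatment protocol). RNA was taken before drug (start, day 0), at a midpoint on day 3 (day 4 for 8093 in lonafarnib), when 5 to 10% of the cells were viable (20% for 8093 in lonafarnib), and at an end with about 90% viable cells on day 21 (Bin-2, nilotinib), day 30 (Bin-2, lonafarnib), day 20 (8093, nilotinib) or day 26 (8093, lonafarnib). Each line is a single model of its genotype, and the doses and days differ between lines and between drugs. Each of the 12 groups held 3 arrays from separate plates, apart from both ends of 8093, which held 2. Levels are given as log2 signals, and a difference of 1 on that scale is a 2-fold difference. Changes are given with the standard error (SE) of a limma fit over all 34 arrays, and a change was called at a Benjamini-Hochberg adjusted p below 0.05 over all 19938 genes.

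Fatty acids are built in the cytosol. ATP-citrate lyase (Acly) splits citrate into acetyl-CoA, acetyl-CoA carboxylase (Acaca) turns acetyl-CoA into malonyl-CoA, and fatty acid synthase (Fasn) joins these units into palmitate. In the endoplasmic reticulum Elovl6 lengthens palmitate to stearate, and the stearoyl-CoA desaturases Scd1 and Scd2 place a double bond in it to give monounsaturated fatty acids. Fads2, Elovl5 and Fads1 act in turn on the essential dietary fatty acids to give polyunsaturated ones. Genes of this pathway are known targets of the transcription factor SREBP1, which Srebf1 encodes, and leukaemia cells that divide use their products for membranes.

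RefSeq windows from 250 bases before to 50 bases after a transcript start of the gene (build GRCm38.p6) were found for 6 of the 9 members, namely Fasn, Acaca, Acly, Elovl5, Elovl6 and Fads2. For Acly, Elovl5, Elovl6 and Fads2 that transcript start is the annotated start of the gene, but for Fasn it lies 619 bases and for Acaca 65803 bases inside the gene, so these windows are not at the outermost start. The windows of Fasn (chr11:120824498-120824797, minus strand), Elovl6 (chr3:129532136-129532435, plus strand) and Acly (chr11:100527951-100528250, minus strand) are shown because Fasn and Elovl6 fell together under nilotinib in 8093, while Acly had the smallest range of group means. They run 5′ to 3′, and capitals mark matches on either strand to the NF-Y box CCAAT or the Sp1 box GGGCGG.
Fasn: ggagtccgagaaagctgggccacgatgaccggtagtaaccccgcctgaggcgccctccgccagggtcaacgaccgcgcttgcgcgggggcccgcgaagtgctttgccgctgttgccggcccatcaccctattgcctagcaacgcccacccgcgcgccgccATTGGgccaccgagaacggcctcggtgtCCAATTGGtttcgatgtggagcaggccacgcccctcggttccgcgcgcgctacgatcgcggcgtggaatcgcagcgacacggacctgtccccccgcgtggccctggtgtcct
Elovl6: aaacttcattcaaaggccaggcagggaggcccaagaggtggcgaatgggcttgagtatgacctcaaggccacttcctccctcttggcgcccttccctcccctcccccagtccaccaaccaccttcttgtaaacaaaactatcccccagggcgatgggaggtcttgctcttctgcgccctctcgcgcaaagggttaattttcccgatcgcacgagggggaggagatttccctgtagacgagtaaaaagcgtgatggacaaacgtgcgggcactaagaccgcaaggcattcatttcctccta
Acly: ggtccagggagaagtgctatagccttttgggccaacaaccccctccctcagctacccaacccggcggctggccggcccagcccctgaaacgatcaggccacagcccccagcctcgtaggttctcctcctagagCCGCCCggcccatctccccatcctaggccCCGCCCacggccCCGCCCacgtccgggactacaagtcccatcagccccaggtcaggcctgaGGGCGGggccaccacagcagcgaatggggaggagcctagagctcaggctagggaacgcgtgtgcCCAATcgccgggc
The Fasn window held 3 NF-Y boxes, at -90, -62 and -59 from that internal transcript start, and the last 2 overlap. The Acly window held 4 Sp1 boxes and 1 NF-Y box, and the Elovl6 window held neither. Of the windows not shown, Elovl5 held 2 NF-Y boxes and an E-box (CACGTG), Fads2 held an Sp1 box, and Acaca held no match. The sterol regulatory element TCACNCCAC was not among the letters of any of the 6 windows. Over all 32851 RefSeq windows of the same length, 37.4% held an NF-Y box, 35.7% an Sp1 box, 7.15% an E-box and 1.24% the sterol regulatory element. These matches describe the letters of these windows only.

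Markers of the labelled cell type were checked on all arrays. The 13 measured pre-B cell markers (among them Cd79a and Pax5) had a mean log2 signal of 8.86 to 9.72 in 11 groups, but of 6.25 at the nilotinib end of 8093, where 12 of the 13 were called lower than at the start and 1 higher. In the same 2 arrays the 13 mast cell markers averaged 11.29, against 4.08 at the start, and the 14 macrophage markers averaged 8.58, against 5.27. The arrays labelled as the nilotinib end of 8093 thus did not carry the marker pattern of pre-B cells. Ranges, correlations and counts of calls over groups that include them are set beside those without them. At the midpoint of 8093 under nilotinib 5 pre-B markers were called lower and 3 higher. Under lonafarnib 5 were lower and 1 higher at the midpoint of 8093, and 5 lower and 0 higher at that of Bin-2. Macrophage markers were also high at the nilotinib midpoint of 8093 (8.60, against 5.27 at the start) and in Bin-2 under nilotinib (8.18 at the midpoint and 8.92 at the end, against 5.90 at the start). Mast cell markers averaged 7.04 at the nilotinib end of Bin-2, against 4.38 at its start, and 9.25 at the nilotinib midpoint of 8093, against 4.08. The lonafarnib courses moved too: macrophage markers averaged 6.91 at the midpoint of Bin-2, against 5.83 at its start, and 6.45 at the midpoint of 8093, against 5.25, with 6 of 14 called higher in each. Mast cell markers averaged 6.20 at the lonafarnib midpoint of 8093, against 4.01, with 10 of 13 called higher, and 5 of 13 were called higher at its end. The 16 fibroblast markers averaged 5.297 at the midpoint of Bin-2 in lonafarnib, against 4.70 at its start, with 9 called higher, and 5.54 at the midpoint of 8093 in nilotinib, against 4.64, with 12 called higher and none lower in either. The 5 adipocyte markers had group means of 3.92 to 4.29. In these bulk samples fewer cells of a type and less RNA per cell cannot be told apart, nor can RNA of viable and of dying cells at the midpoints. The part of other cell types in the changes of the 9 enzymes was not tested. The interquartile range of an array's signals was narrow in a pair of groups, with a mean of 3.16 for Bin-2 midway through lonafarnib and 3.03 for 8093 midway through nilotinib. Elsewhere it was 3.42 to 3.55.

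**Figure D1:**
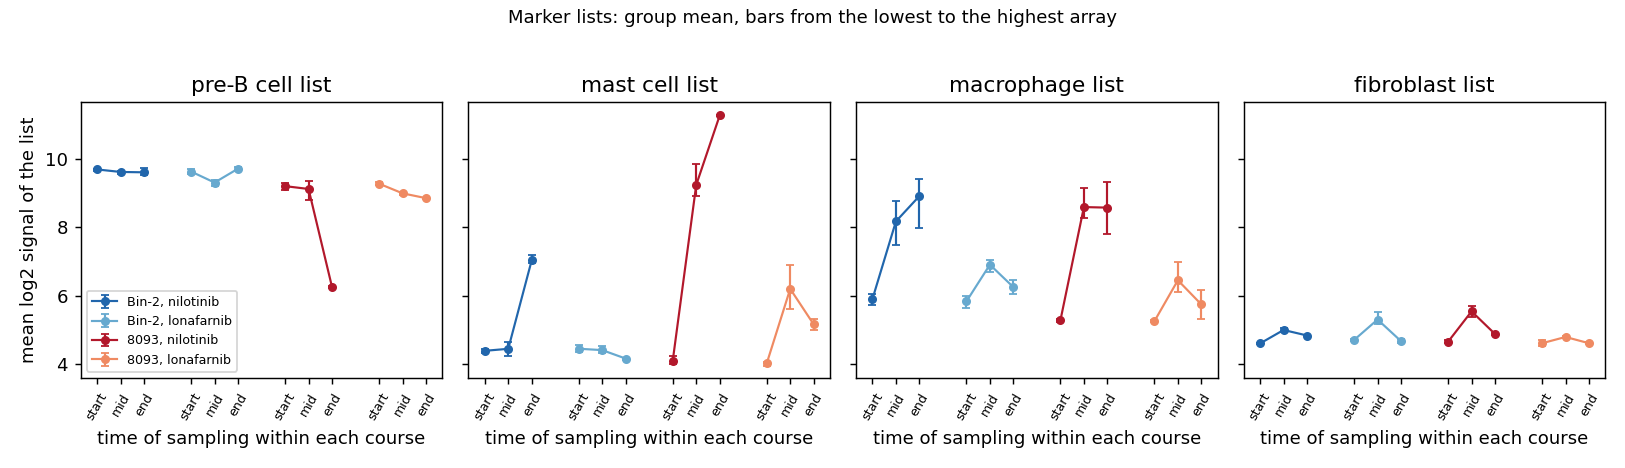
Mean log2 signal of 4 marker lists (vertical axis) at the start, midpoint and end of each course (horizontal axis), with points for group means of 2 or 3 arrays and bars from the lowest to the highest array. The pre-B list drops to 6.25 at the nilotinib end of 8093, where the mast cell list reaches 11.29, and the macrophage list is high in both nilotinib courses.

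The members mostly fell below their start levels, most widely in 8093 under nilotinib, and Scd1 and Fads1 were the members that also rose. In Bin-2 under nilotinib, 3 of 9 members were called at the midpoint, all lower, where 3.47% of all genes were called, and 3 at the end, all lower, where 8.89% of all genes were called. In Bin-2 under lonafarnib, 6 were called at the midpoint, all lower (16.5% of all genes were called), and 5 at the end, all lower (8.07% of all genes). That end count was 2 to 4 when any 1 of the 6 arrays compared was left out. In 8093 under nilotinib, 7 were called at the midpoint, all lower (50.1% of all genes), and at the end all 9 were called, 8 lower and Fads1 higher (44.5% of all genes). In 8093 under lonafarnib, 1 was called higher and 2 lower at the midpoint (10.8% of all genes), and 2 were called higher at the end (8.71% of all genes). The median change of the 9 members in 8093 under nilotinib was -0.60 at the midpoint and -1.02 at the end, against 0.03 and -0.15 for all genes. In the other courses the members' median lay between -0.42 and 0.13. Over the 7 comparisons that do not use the nilotinib end of 8093, Scd2 was called lower in 6, Scd1 lower in 4 and higher in 2, Fasn lower in 4, Acaca and Elovl6 lower in 3 each, Fads1 lower in 3 and higher in 1, Fads2 lower in 2, Elovl5 lower in 1 and Acly in 0. Midpoint and end of a course share their start arrays, so their changes are not independent of each other.

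**Figure D2:**
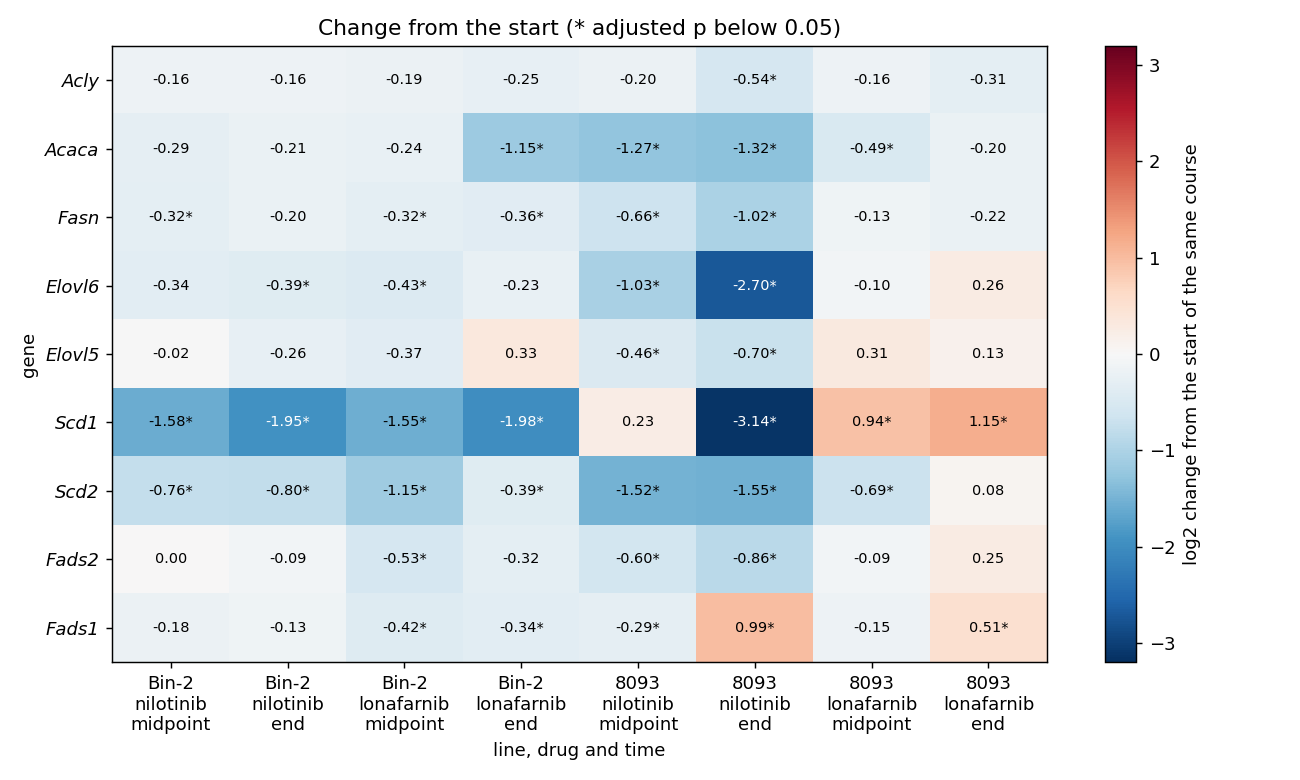
Log2 change from the start of the same course for each of the 9 enzymes (rows, in the order of the pathway) in 8 comparisons (columns), coloured from blue (lower) to red (higher) with the value printed. Asterisks mark changes with an adjusted p below 0.05, and the darkest cells are Scd1 (-3.14) and Elovl6 (-2.70) at the nilotinib end of 8093.

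The scale between arrays mattered for the smaller changes at the midpoints. Centring each array on its median and scaling it to a common interquartile range moved the median change of all genes by -0.19 at the nilotinib midpoint of 8093 and by 0.17 between its midpoint and end. Under that scaling 2 members were called for Bin-2 midway through lonafarnib (Scd1 and Scd2) and 4 for 8093 midway through nilotinib (Acaca, Elovl6, Fasn and Scd2), where 13.9% and 52.2% of all genes were called under it.

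The steps that lead to palmitate had negative changes from the start in all 8 comparisons for each of Acly, Acaca and Fasn, but the size differed between the 3 enzymes. Fasn was called lower in 5 of 8 comparisons, Acaca in 4 and Acly in 1. The largest falls of all 3 were at the nilotinib end of 8093.

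Fasn (chromosome 11, 120805958 to 120825166, GRCm38.p6) is the enzyme that assembles palmitate. In Bin-2 under nilotinib its log2 signals were 10.03, 10.01 and 10.07 at the start, 9.73, 9.67 and 9.73 at the midpoint, and 9.97, 9.67 and 9.86 at the end. The lonafarnib course of Bin-2 gave 10.02, 10.01 and 10.12 at the start, 9.77, 9.79 and 9.62 at the midpoint, and 9.65, 9.62 and 9.79 at the end. No midpoint or end array of Bin-2 reached the lowest start array of its course. The nilotinib course of 8093 gave 9.58, 9.56 and 9.70 at the start, 9.06, 8.92 and 8.88 at the midpoint, and 8.45 and 8.73 at the end, a stepwise order with no overlap between times. The lonafarnib course of 8093 lay between 9.38 and 9.71 on all 8 arrays. The change from the start in 8093 under nilotinib was -0.66 ± 0.09 at the midpoint (adjusted p = 8.72e-07) and -1.02 ± 0.11 at the end, 2.03-fold lower (adjusted p = 1.52e-09). In Bin-2 Fasn fell by 0.32 ± 0.09 at the nilotinib midpoint (adjusted p = 0.0498), by 0.32 ± 0.09 at the lonafarnib midpoint (adjusted p = 0.0176) and by 0.36 ± 0.09 at the lonafarnib end (adjusted p = 0.0118). These Bin-2 calls were at the edge of the threshold. The first was lost when any single array of its groups was left out (changes of -0.30 to -0.34) and under both scalings between arrays (-0.27 each). The second was lost without midpoint array 3 (-0.27) or start array 3 (-0.29), and under both scalings between arrays (-0.22 with quantile normalization, -0.0044 with the interquartile range scaled). The third was lost without end array 2 or start array 3 (-0.33 each).

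Acaca (chromosome 11, 84129635 to 84401651) makes malonyl-CoA, the unit that Fasn and the elongases add. The nilotinib arrays of Bin-2, 9 in all, lay between 8.49 and 8.95. In Bin-2 under lonafarnib the signals were 8.65, 8.88 and 8.96 at the start, 8.72, 8.52 and 8.52 at the midpoint, and 7.72, 7.74 and 7.58 at the end. The end arrays stood clear below the others of that course, whose start and midpoint arrays overlapped. In 8093 under nilotinib the signals were 8.73, 8.93 and 8.98 at the start, 7.69, 7.66 and 7.47 at the midpoint, and 7.78 and 7.35 at the end. In 8093 under lonafarnib they were 8.55, 8.54 and 8.61 at the start, 8.06, 8.08 and 8.09 at the midpoint, and 8.21 and 8.51 at the end. Here the midpoint was low and the end arrays lay between midpoint and start. Acaca fell by 1.15 ± 0.11 at the lonafarnib end of Bin-2, 2.22-fold lower (adjusted p = 2.02e-08), by 1.27 ± 0.11 at the nilotinib midpoint of 8093 (adjusted p = 1.97e-10), by 1.32 ± 0.13 at its end (adjusted p = 4.47e-10) and by 0.49 ± 0.11 at the lonafarnib midpoint of 8093 (adjusted p = 0.00459). The second Acaca probeset changed in the same direction in all 8 comparisons with the start and passed the threshold in 1 more, the nilotinib midpoint of Bin-2 (-0.50 ± 0.11, adjusted p = 0.0163 over all probesets).

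Acly (chromosome 11, 100476352 to 100528000), which supplies the acetyl-CoA, moved least. Its group means lay between 9.11 and 9.92, and the range of 0.81 was at percentile 52.4 of all genes, or at percentile 22.8 (0.47) without the nilotinib end of 8093. The nilotinib end arrays of 8093 had 8.99 and 9.22, against 9.78, 9.53 and 9.62 at the start, with no overlap. That fall of 0.54 ± 0.11 (adjusted p = 0.000248) was the only change of Acly from a start that was called. The other changes from a start were -0.16 to -0.31. At the lonafarnib end of 8093 the change of -0.31 ± 0.11 (adjusted p = 0.0982) passed the threshold when end array 1 was left out (-0.48).

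**Figure D3:**
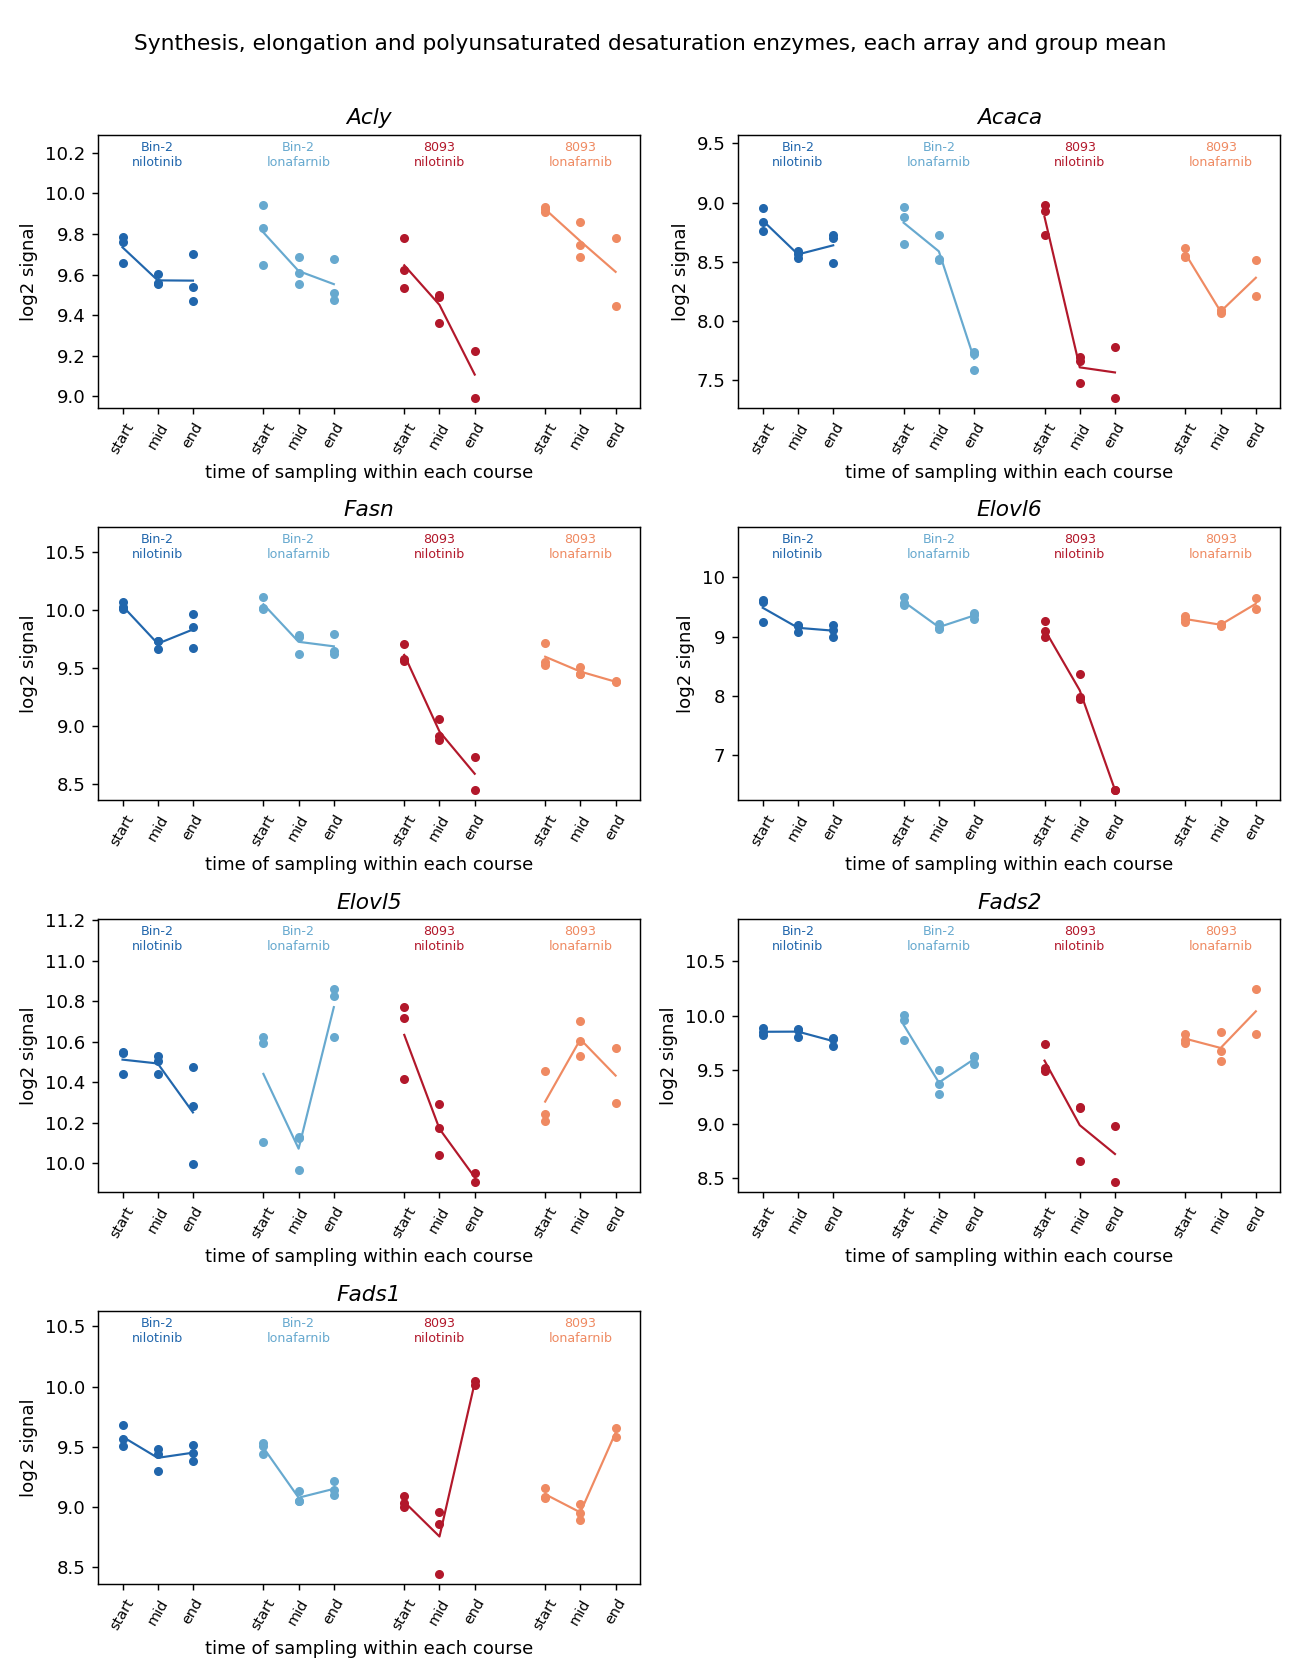
Log2 signal (vertical axis) of Acly, Acaca, Fasn, Elovl6, Elovl5, Fads2 and Fads1 on each array (points) at the start, midpoint and end of each course (horizontal axis), with lines through the group means and a vertical scale of its own for each gene. Fasn, Elovl6 and Acaca step down in 8093 under nilotinib, Acaca is low at the lonafarnib end of Bin-2, and Fads1 is highest at the end of each 8093 course.

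The elongases differed from each other. Elovl6, which lengthens saturated and monounsaturated chains, had the second largest range of group means among the members, and Elovl5, which lengthens polyunsaturated chains, the second smallest. Without the nilotinib end of 8093 the range of Elovl6 (1.49) came after those of Scd1 (5.27) and Scd2 (1.68), and Elovl5 kept its rank. Elovl6 was called lower in 4 of the 8 comparisons with the start and Elovl5 in 2, and neither was called higher than at a start.

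For Elovl6 (chromosome 3, 129532386 to 129638495) the log2 signals in 8093 under nilotinib were 9.27, 8.998 and 9.10 at the start, 8.36, 7.94 and 7.98 at the midpoint, and 6.42 on both end arrays. The 3 times did not overlap. All other arrays of both lines lay between 8.999 and 9.68. Elovl6 fell by 1.03 ± 0.11 at the nilotinib midpoint of 8093, 2.04-fold lower (adjusted p = 3.75e-09), and its change at the end was -2.70 ± 0.12, 6.51-fold lower (adjusted p = 9.59e-18). Without the end arrays the range of its group means was 1.49, at percentile 91.1 of all genes, and with them 3.17, at percentile 96.5. In Bin-2 it fell by 0.39 ± 0.11 at the nilotinib end (adjusted p = 0.0186) and by 0.43 ± 0.11 at the lonafarnib midpoint (adjusted p = 0.00667). The first of these was lost without end array 2 (-0.33), start array 1 (-0.32) or start array 2 (-0.34), and the second with the interquartile range scaled (-0.16). At the nilotinib midpoint of Bin-2 the change was -0.34 ± 0.11 (adjusted p = 0.0802), and it passed without start array 3 (-0.45). In 8093 under lonafarnib it was -0.10 ± 0.11 at the midpoint and 0.26 ± 0.12 at the end, neither called.

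For Elovl5 (chromosome 9, 77917365 to 77984519) the signals in 8093 under nilotinib were 10.42, 10.77 and 10.72 at the start, 10.29, 10.04 and 10.17 at the midpoint, and 9.95 and 9.91 at the end. It was lower by 0.46 ± 0.13 at the midpoint as deposited (-0.46, adjusted p = 0.00411), a direction that turned to 0.012 with the interquartile range scaled, and it fell by 0.70 ± 0.15 at the end (adjusted p = 0.000184). The midpoint call was also lost with quantile normalization (-0.25). In Bin-2 under lonafarnib the signals were 10.11, 10.62 and 10.59 at the start, 10.12, 9.96 and 10.13 at the midpoint, and 10.86, 10.82 and 10.62 at the end. Start array 1 lay with the midpoint arrays, apart from the other start arrays. Neither time was called against the start (-0.37 ± 0.13 at the midpoint, adjusted p = 0.0517, and 0.33 ± 0.13 at the end, adjusted p = 0.14), and the midpoint passed without start array 1 (-0.54). The end was called above the midpoint by 0.70 ± 0.13 (adjusted p = 0.000163), but not with the interquartile range scaled (0.27).

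Both stearoyl-CoA desaturases were called lower in every comparison of Bin-2 with its start and at the nilotinib end of 8093. In the other comparisons of 8093 with a start their calls differed. Scd2 was called lower in 7 of 8 comparisons with the start, while Scd1 was called lower in 5 and higher in 2, both in 8093 under lonafarnib. Scd1 had the largest range of group means of the members, 5.27 log2 units, at percentile 99.3 of all genes (99.8 without the nilotinib end of 8093, with the same range), and Scd2 had 1.70, at percentile 87.2 (1.68, at percentile 93.8, without that end). Over the 12 group means their Pearson correlation was 0.34, and 0.26 without the nilotinib end of 8093, as a description of groups that share lines.

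In Bin-2 the log2 signals of Scd1 (chromosome 19, 44394450 to 44407709) under nilotinib were 6.29, 6.59 and 6.89 at the start, 5.36, 4.77 and 4.92 at the midpoint, and 4.66, 4.03 and 5.24 at the end. The lonafarnib course of Bin-2 gave 6.19, 6.38 and 7.32 at the start, 4.95, 5.32 and 4.96 at the midpoint, and 4.69, 4.58 and 4.65 at the end. All 12 arrays of Bin-2 in drug lay below all 6 start arrays. The nilotinib course of 8093 gave 8.72, 8.37 and 8.71 at the start, 9.09, 8.72 and 8.68 at the midpoint, and 5.39 and 5.54 at the end. The lonafarnib course of 8093 gave 8.78, 8.65 and 8.84 at the start, 9.81, 9.69 and 9.58 at the midpoint, and 10.13 and 9.69 at the end. So in 8093 the level stayed near its start at the nilotinib midpoint and was low at the nilotinib end, and every lonafarnib array in drug lay above every start array.

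In Bin-2 Scd1 fell by 1.58 ± 0.24 at the nilotinib midpoint, 2.98-fold lower (adjusted p = 8.39e-05), and by 1.95 ± 0.24 at the end, 3.85-fold lower (adjusted p = 8.25e-07). Under lonafarnib it fell by 1.55 ± 0.24 at the midpoint (adjusted p = 8.48e-05) and by 1.98 ± 0.24 at the end, 3.96-fold lower (adjusted p = 6.19e-07). The end means of Bin-2 were 4.64 ± 0.61 under nilotinib and 4.64 ± 0.06 under lonafarnib (SD, n = 3 each). How far these levels lie above the background of that probeset was not tested. In 8093 the change was 0.23 ± 0.24 at the nilotinib midpoint (adjusted p = 0.448) and -3.14 ± 0.27 at the end, 8.81-fold lower (adjusted p = 3.04e-11). Under lonafarnib Scd1 rose by 0.94 ± 0.24 at the midpoint, 1.91-fold (adjusted p = 0.00927), and by 1.15 ± 0.27 at the end, 2.22-fold (adjusted p = 0.00517). The call at the lonafarnib end was lost without end array 1 (0.93), which left a single end array.

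For Scd2 (chromosome 19, 44293676 to 44306864), close to Scd1 on the chromosome, the signals of all 12 start arrays lay between 10.82 and 11.09. In Bin-2 under nilotinib they were 10.17, 10.16 and 10.11 at the midpoint and 9.97, 10.04 and 10.33 at the end, and under lonafarnib 9.85, 9.71 and 9.87 at the midpoint and 10.62, 10.66 and 10.42 at the end. In 8093 under nilotinib they were 9.59, 9.37 and 9.21 at the midpoint and 9.45 and 9.28 at the end, and under lonafarnib 10.31, 10.18 and 10.40 at the midpoint and 11.18 and 10.96 at the end. The midpoint arrays of all 4 courses were below every start array. Under lonafarnib the end arrays were higher than the midpoint arrays in both lines, and under nilotinib the signals of midpoint and end overlapped in both lines on the deposited scale.

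At the midpoint Scd2 fell by 0.76 ± 0.11 in Bin-2 under nilotinib (adjusted p = 4.51e-05), by 1.15 ± 0.11 in Bin-2 under lonafarnib (adjusted p = 2.15e-07), by 1.52 ± 0.11 in 8093 under nilotinib, 2.87-fold lower (adjusted p = 3.38e-12), and by 0.69 ± 0.11 in 8093 under lonafarnib (adjusted p = 8.24e-05). At the nilotinib end its changes were -0.80 ± 0.11 in Bin-2 (adjusted p = 4.99e-06) and -1.55 ± 0.12 in 8093 (adjusted p = 6.42e-12). At the lonafarnib end it was lower by 0.39 in Bin-2 (-0.39 ± 0.11, adjusted p = 0.0233) and differed by 0.08 ± 0.12 in 8093 (adjusted p = 0.79). The Bin-2 call at the lonafarnib end was lost without end array 3 (-0.31), start array 2 (-0.40) or start array 3 (-0.32).

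**Figure D4:**
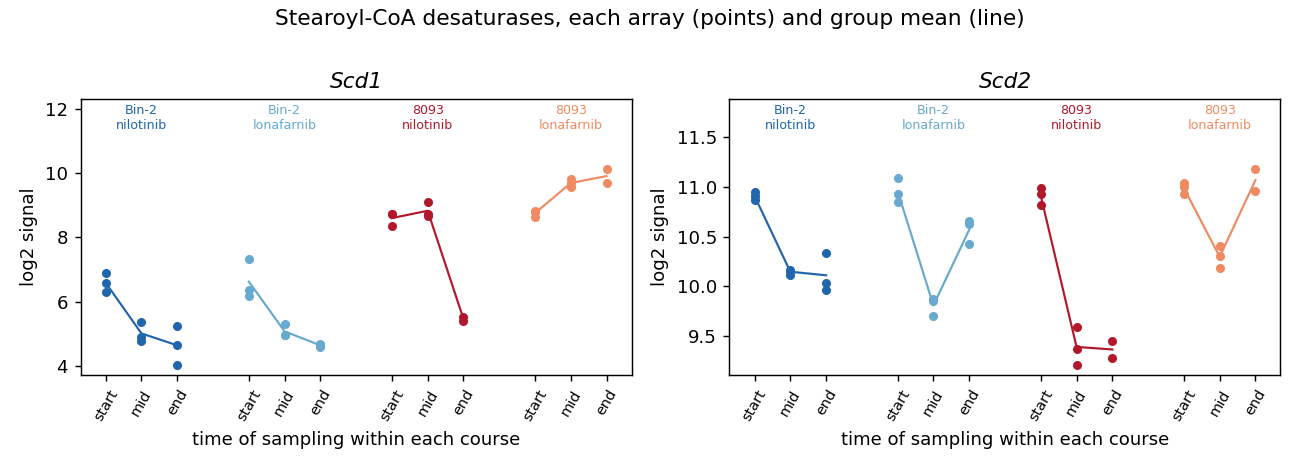
Log2 signal (vertical axis) of Scd1 and Scd2 on each array (points) at the start, midpoint and end of each course (horizontal axis), with lines through the group means. Scd1 falls in both Bin-2 courses and at the nilotinib end of 8093 but lies at 9.58 to 10.13 in 8093 under lonafarnib, and Scd2 dips at every midpoint and is higher again at the end in both lonafarnib courses.

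The desaturases of the polyunsaturated pathway, Fads2, which acts first, and Fads1, which acts after Elovl5, lie close together on chromosome 19 (10062765 to 10101503 and 10182877 to 10196874). They moved in opposite directions at the nilotinib end of 8093 and otherwise mostly alike. Fads2 was called lower in 3 of the 8 comparisons with the start, and Fads1 lower in 3 and higher in 2. Over 12 group means their correlation was -0.00, and without the nilotinib end of 8093 it was 0.84 over 11.

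In 8093 under nilotinib the log2 signals of Fads1 were 9.09, 9.004 and 9.03 at the start, 8.86, 8.96 and 8.44 at the midpoint, and 10.01 and 10.05 at the end. In 8093 under lonafarnib they were 9.08, 9.08 and 9.15 at the start, 9.03, 8.95 and 8.89 at the midpoint, and 9.65 and 9.58 at the end. In both courses of 8093 the end arrays lay above all others. Fads1 rose by 0.99 ± 0.11 at the nilotinib end of 8093, 1.99-fold (adjusted p = 9.56e-09), and by 0.51 ± 0.11 at the lonafarnib end, 1.43-fold (adjusted p = 0.0029). At the nilotinib midpoint of 8093 it was lower by 0.29 (-0.29 ± 0.10, adjusted p = 0.0177), a call that was lost without midpoint array 3 (-0.13) or start array 1 (-0.26) and a direction that was gone with quantile normalization (0.00052). That call was also lost with the interquartile range scaled (-0.0039). In Bin-2 all 6 arrays at the start lay between 9.44 and 9.68, and under lonafarnib those of the midpoint lay between 9.05 and 9.14 and those of the end between 9.10 and 9.21. Fads1 fell there by 0.42 ± 0.10 at the midpoint (adjusted p = 0.00492), which was not called with the interquartile range scaled (-0.15), and by 0.34 ± 0.10 at the end (adjusted p = 0.0278), a call lost without any of 5 of the 6 arrays (-0.32 to -0.37). Under nilotinib its changes in Bin-2 were -0.18 and -0.13, neither called.

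Fads2 had log2 signals of 9.74, 9.52 and 9.49 at the start, 9.15, 8.66 and 9.16 at the midpoint, and 8.46 and 8.98 at the end of 8093 under nilotinib. In Bin-2 under lonafarnib they were 10.01, 9.77 and 9.96 at the start, 9.50, 9.37 and 9.28 at the midpoint, and 9.62, 9.62 and 9.55 at the end. In both courses every array in drug was below every start array. Fads2 fell by 0.53 ± 0.13 at the lonafarnib midpoint of Bin-2 (adjusted p = 0.00584), by 0.60 ± 0.13 at the nilotinib midpoint of 8093 (adjusted p = 0.00035) and by 0.86 ± 0.15 at its end (adjusted p = 1.09e-05). The calls at both midpoints were lost with the interquartile range scaled (-0.24 in Bin-2 and -0.27 in 8093). In Bin-2 under nilotinib the 9 arrays lay between 9.72 and 9.88, and the changes were 0.0014 at the midpoint and -0.09 at the end.

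Between midpoint and end, when viability returned, the count of called members differed between courses, and so did the share of all genes called. The counts are to be read against those shares. In Bin-2 under nilotinib no member was called (1.41% of all genes were called at an adjusted p below 0.05 in limma, and 2046 genes at an unadjusted p below that value). In Bin-2 under lonafarnib 3 were called (29.7% of all genes), with Scd2 and Elovl5 higher (0.76 ± 0.11 and 0.70 ± 0.13) and Acaca lower (-0.91 ± 0.11, adjusted p = 6.65e-07). In 8093 under nilotinib 5 were called (54.5% of all genes), with Fads1 higher (1.28 ± 0.11) and Scd1 (-3.37 ± 0.27), Elovl6 (-1.68 ± 0.12), Fasn (-0.36 ± 0.11) and Acly (-0.34 ± 0.11) lower. The calls of Fasn (-0.22) and Acly (-0.23) were lost without end array 1, and Fads2 (-0.27) passed without end array 2 (-0.52) or midpoint array 2 (-0.43). This count depended on the scaling: with quantile normalization all 9 were called, adding Scd2 (-0.30), Acaca (-0.35), Elovl5 (-0.45) and Fads2 (-0.57), and with the interquartile range scaled 8 were called, adding Scd2 (-0.56), Elovl5 (-0.90) and Fads2 (-0.73). Under these scalings 39.6% and 43% of all genes were called. In 8093 under lonafarnib 2 were called, both higher (6.26% of all genes), Scd2 by 0.77 ± 0.12 (adjusted p = 0.000106) and Fads1 by 0.66 ± 0.11 (adjusted p = 0.000213). Scd2 was therefore higher at the end than at the midpoint in both lonafarnib courses, and as deposited its change from midpoint to end under nilotinib was -0.04 in Bin-2 and -0.03 in 8093, neither called. In 8093 both scalings called it lower at the nilotinib end than at the midpoint, by the values above.

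The drugs were set against each other within a line as the change from the start under nilotinib minus that under lonafarnib, at doses and days that differ. In Bin-2 no member was called at the midpoint (1.48% of all genes were called in limma, and 2903 genes at an unadjusted p below 0.05). The largest difference there was Fads2 (0.53 ± 0.18, adjusted p = 0.148), which was called with only the arrays of the Bin-2 courses in the fit (0.53) and with the macrophage and mast cell covariates (0.74). For Scd1 in Bin-2 the difference was -0.03 ± 0.34 at the midpoint and 0.04 ± 0.34 at the end. At the end of Bin-2, 2 members differed (9.51% of all genes): Acaca by 0.94 ± 0.16 (adjusted p = 0.000189), which was the lower gene under lonafarnib, and Elovl5 by -0.59 ± 0.19 (adjusted p = 0.0403). The Elovl5 difference was lost without nilotinib end array 1 or 2, nilotinib start array 2 or 3, lonafarnib end array 1 or 2 or lonafarnib start array 1 (-0.42 to -0.60). Scd2 at the end of Bin-2 (-0.41 ± 0.15) passed without nilotinib end array 3 (-0.52).

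In 8093, 6 members were lower under nilotinib than under lonafarnib at the midpoint, relative to their starts (26.8% of all genes were called). They were Elovl6 (-0.93 ± 0.15), Scd2 (-0.83 ± 0.15), Acaca (-0.78 ± 0.16), Elovl5 (-0.77 ± 0.19), Fasn (-0.53 ± 0.13) and Fads2 (-0.51 ± 0.18). The Fads2 difference was lost without any of 6 arrays (nilotinib start 1 and midpoint 2, lonafarnib start 2 and 3 and midpoint 2 and 3), with values of -0.34 to -0.53. With the interquartile range scaled Elovl6, Scd2 and Acaca were called, and Fasn (-0.25), Elovl5 (-0.34) and Fads2 (-0.23) were not. Quantile normalization also lost the calls of Fasn (-0.33) and Fads2 (-0.32). Under these scalings 27.6% and 23.5% of all genes were called. Scd1 differed by -0.71 ± 0.34 (adjusted p = 0.122). At the end, with the arrays that lacked pre-B markers, 8 members differed (33.2% of all genes), 7 lower under nilotinib and Fads1 higher. The largest differences were Scd1 (-4.29 ± 0.38, adjusted p = 1.51e-10), Elovl6 (-2.96 ± 0.17, adjusted p = 1.56e-14) and Scd2 (-1.63 ± 0.17, adjusted p = 7.36e-09). Fads1 differed by 0.48 ± 0.16 (adjusted p = 0.0184) and Acly by -0.23 ± 0.16 (adjusted p = 0.308). The Fads1 call was lost without lonafarnib end array 2 (0.44) and with the interquartile range scaled (0.36). It was also lost with only the arrays of the 8093 courses in the fit (0.48) and with a replicate block by number (0.40).

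**Figure D5:**
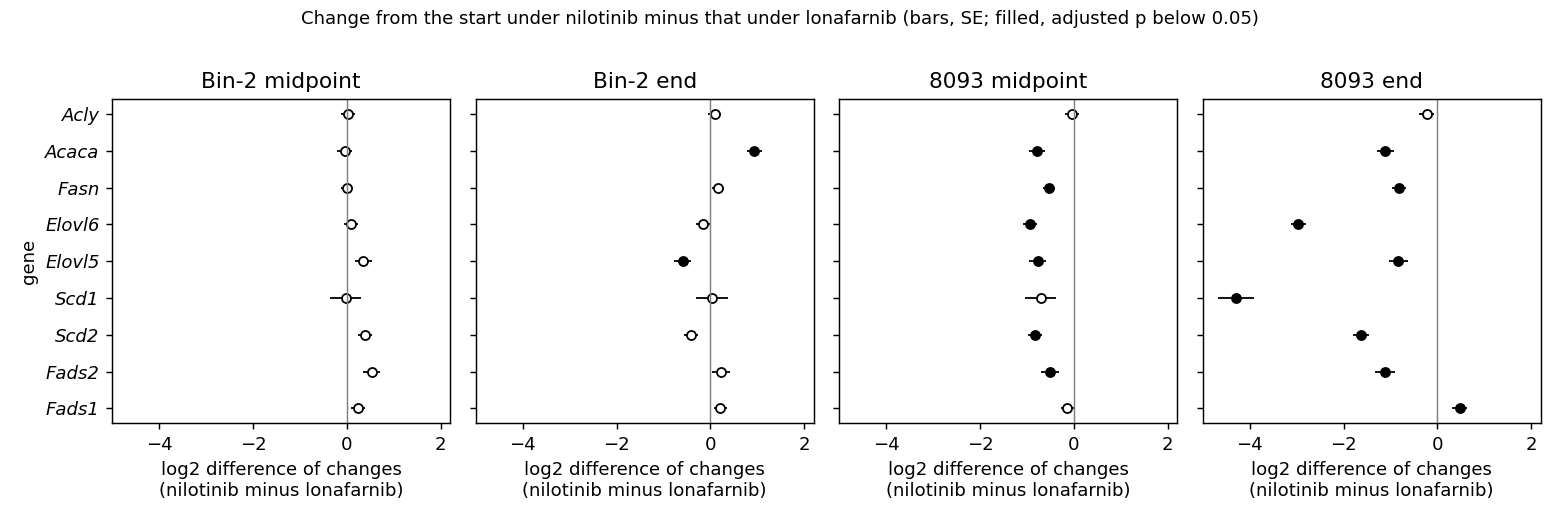
Change from the start under nilotinib minus that under lonafarnib (horizontal axis, log2 units) for each of the 9 enzymes (vertical axis) in 4 panels by line and time, with bars for the SE and filled points for an adjusted p below 0.05. In Bin-2 the points lie between -0.59 and 0.94, with Acaca and Elovl5 at the end filled, and in 8093 most lie left of 0, out to -4.29 for Scd1 at the end.

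The lines differed before any drug was given. Over both sets of start arrays, Scd1 had group means of 6.59 and 6.63 in Bin-2, against 8.60 and 8.76 in 8093, with no overlap, a difference of -2.07 ± 0.17 or 4.20-fold (adjusted p = 4.94e-11). Fads1 (0.46 ± 0.07, adjusted p = 6.84e-06) and Fasn (0.44 ± 0.07, adjusted p = 7.11e-06) were higher in Bin-2 without overlap, and Elovl6 was higher by 0.33 ± 0.08 (adjusted p = 0.00153) with overlap. These were 4 of 9 members, where 20.1% of all genes were called. No member was called between the start arrays of the nilotinib and lonafarnib courses, which are untreated cells of the same line on other plates. In Bin-2, 0% of all genes were called between these starts by limma (1085 at an unadjusted p below 0.05, and 0 adjusted with a trended, robust prior), and in 8093 also 0% (2350 unadjusted and 17 with that prior). Without nilotinib start array 1 of 8093, 198 genes were called there. Acaca had 8093 start means of 8.88 (nilotinib) and 8.57 (lonafarnib), and Elovl5 of 10.63 and 10.30. The drug differences of these genes in 8093 are measured from these separate starts.

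Scd1 was the only member whose change from the start differed between the lines in all 4 tests. The change in Bin-2 minus that in 8093 was -1.80 ± 0.34 at the nilotinib midpoint (adjusted p = 0.000162), 1.19 ± 0.36 at the nilotinib end (adjusted p = 0.0104), -2.49 ± 0.34 at the lonafarnib midpoint (adjusted p = 2.43e-05) and -3.14 ± 0.36 at the lonafarnib end (adjusted p = 6.13e-07). It was thus lower in Bin-2 in 3 of the 4 tests, and the test in the other direction rests on the 8093 arrays without pre-B markers and was lost without nilotinib end array 1 of 8093 (1.12). In all, 5 members differed between lines at the nilotinib midpoint (26.0% of all genes were called), 7 at the nilotinib end (30.6%), 2 at the lonafarnib midpoint (4.20%) and 3 at the lonafarnib end (4.61%). Under nilotinib the changes of Acaca, Elovl6, Scd2 and Fads2 were lower in 8093 than in Bin-2 at both times. For Fads2 the midpoint difference was not called with quantile normalization (0.38) or with the interquartile range scaled (0.32). Under lonafarnib Acaca (-0.95 ± 0.17) and Fads1 (-0.85 ± 0.15) were lower in Bin-2 at the end, and Elovl5 (-0.68 ± 0.19) at the midpoint. The Elovl5 difference was lost in 7 of 12 fits without 1 array (-0.59 to -0.68), and that of Fads2 under nilotinib without start array 1 (0.52) or midpoint array 2 (0.43) at the midpoint, and without end array 1 (0.52) at the end, all of 8093.

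Other genes of lipid metabolism were taken from 7 lists, and their shares are to be read against the background given for each comparison. Of 8 measured genes that supply carbon and NADPH, 4 were called higher and 1 lower at each of the nilotinib midpoint and end of 8093, and 1 higher and 3 lower at the lonafarnib midpoint of Bin-2. Acss2, which makes acetyl-CoA from acetate, changed by 0.93 ± 0.17 in Bin-2 (nilotinib end), and by 1.06 ± 0.17 (midpoint) and 3.77 ± 0.20 (end) in 8093 under nilotinib, all called. It was also called higher at the lonafarnib end of Bin-2 (0.75 ± 0.17), a call lost without start array 2 (0.60). Me1, the malic enzyme that gives NADPH, changed by 1.58 ± 0.16 and 4.77 ± 0.18 at these times of 8093. The citrate carrier Slc25a1 was lower at the nilotinib end of 8093 (-0.77 ± 0.10). So at the nilotinib end of 8093 Acss2 and Me1 stood high in the arrays in which Acly, Acaca and Fasn stood low and mast cell markers stood high.

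Among 11 measured partners of the elongation cycle, 3 were called higher and 6 lower at the nilotinib midpoint of 8093, and 2 higher and 5 lower at its end. The dehydratases of the cycle split, with Hacd4 at 2.04 ± 0.22 and 5.51 ± 0.24 and Hacd2 at -1.32 ± 0.18 and -1.18 ± 0.20 at the midpoint and end. Elovl7, another elongase, rose at both ends of 8093 (2.22 ± 0.19 under nilotinib and 2.49 ± 0.19 under lonafarnib). Among 7 other desaturase genes, Fads3, a relative of Fads1 and Fads2, fell by 0.70 ± 0.13 at the nilotinib midpoint and by 2.16 ± 0.15 at the nilotinib end of 8093, and Degs1, the desaturase of ceramide synthesis, was higher by 0.98 ± 0.18 and 1.91 ± 0.20. Cytochrome b5 (Cyb5a), the electron donor of the desaturases, was lower at the nilotinib midpoint of 8093 (-1.17 ± 0.13).

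Of 13 measured regulators of lipogenesis, at most 5 were called in a direction in any comparison with the start. Srebf1 was called lower in 5 of the 8, by 0.49 ± 0.11 and 1.02 ± 0.11 at the lonafarnib midpoint and end of Bin-2 (-0.49 and -1.02), by 0.41 ± 0.11 at the nilotinib midpoint of 8093 (-0.41), and by 0.65 ± 0.11 and 0.73 ± 0.12 at the lonafarnib midpoint and end of 8093 (-0.65 and -0.73). With quantile normalization the calls at the midpoints of Bin-2 under lonafarnib (-0.34) and of 8093 under nilotinib (-0.16) were lost. Insig1, which retains the SREBP complex in the endoplasmic reticulum, fell in all 4 comparisons of Bin-2, by 0.70 ± 0.12 and 1.17 ± 0.12 under nilotinib and by 1.15 ± 0.12 and 0.44 ± 0.12 under lonafarnib, and was not called in 8093 (-0.26 to 0.32). The last of these calls was lost without start array 2, end array 1 or end array 3 (-0.42 to -0.43). Scd1 rose in 8093 under lonafarnib while Srebf1 fell there, each measured from the start of that course. The untreated 8093 cells had mean Srebf1 signals of 8.13 in the lonafarnib course and 7.68 in the nilotinib course, a gap that was not called. In lonafarnib the Srebf1 means were 7.48 (midpoint) and 7.40 (end), below both untreated sets but nearer to that of the nilotinib course. How much of the Srebf1 fall reflects this gap was not tested. Srebf2 was called once (-0.35 ± 0.09 at the lonafarnib midpoint of Bin-2), a call lost under both scalings, and Nr1h3 in no comparison. Mid1ip1 was called at the nilotinib end of 8093 (0.82 ± 0.19).

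Of 6 measured uptake and binding genes, 4 were called higher in Bin-2 late in nilotinib and 5 in 8093 midway through it. Cd36, the fatty acid translocase, was called higher in 7 of 8 comparisons, with changes of 1.76 to 3.36, and at the lonafarnib end of 8093 it changed by 1.26 ± 0.42. Cd36 and Lpl, the lipoprotein lipase, are also expressed by macrophages, whose markers were high in the nilotinib courses, and the part of those cells was not tested. Of 16 measured genes of activation and esterification, 2 were called higher and 8 lower at the nilotinib midpoint of 8093, and 7 higher and 6 lower at its end. At the lonafarnib midpoint of Bin-2, 1 was called higher and 5 lower. In this list Plin2, the coat protein of lipid droplets, was called higher in 5 comparisons (0.87 to 1.75). Agpat2 was called lower in 5 comparisons and Dbi in 4. Of 15 measured genes of fatty acid oxidation, 7 were called lower in Bin-2 midway through lonafarnib, which became 3 under either scaling between arrays, and 11 in 8093 midway through nilotinib. Hadhb, a subunit of the mitochondrial trifunctional protein, fell most at those midpoints (-0.91 ± 0.12 in Bin-2 and -1.19 ± 0.12 in 8093). Cpt1a, the carnitine transferase of the mitochondrial outer membrane, was lower at the nilotinib end of 8093 (-1.56 ± 0.14) and higher at the lonafarnib midpoint of Bin-2 (0.67 ± 0.12).

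The shape of each member over the 12 groups was set against that of 9506 genes with a mean above the median of all genes, by Pearson correlation of group means, as a description of groups that share lines and feeder cells. Elovl6 was most like Pdk1 (1.00), Rcsd1 (0.99) and Eml4 (0.99), and without the nilotinib end of 8093 these were 0.98, 0.96 and 0.93. Scd1 was most like Kcnk10 (0.96), Kat6b (0.94) and Ptk7 (0.93), and Scd2 most like Pdxp (0.97), Banf1 (0.97) and Oip5 (0.96). Fads1 was most like Dym (0.98), Srr (0.92) and Tvp23b (0.92), and Fads2 most like Rnaseh2a (0.97), Telo2 (0.96) and Pdpr (0.96). For Fasn these were Xk, Tfap4 and St3gal6 (0.96 each), for Acaca Tmem97, Pcbd1 and Tada2a (0.93 to 0.95), for Acly Selplg, H4c4 and Zfp446 (0.95 to 0.96), and for Elovl5 Zfp810, Ilkap and Nras (0.90 to 0.91). Without the nilotinib end of 8093 the same genes had 0.87 to 0.89 for Acly, 0.84 to 0.88 for Elovl5 and 0.88 to 0.97 for Fads1. For Scd1, Scd2, Fasn, Acaca and Fads2 they had 0.92 to 0.97. Among the members themselves Elovl6 and Fads2 were the most alike (0.91, and 0.88 without the nilotinib end of 8093). Fasn and Elovl6 came next with all groups (0.87), but without that end (0.74) they came after Fads1 and Fads2 (0.84), Scd2 and Elovl6 (0.81) and Scd2 and Fads2 (0.78). Scd1 had correlations of -0.36 to 0.36 to the other 8 members, and of -0.59 (Fasn) to 0.30 (Acly) without that end.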

How the data were processed

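Gene expression was measured on Affymetrix Mouse Gene 1.0 ST arrays in 34 RNA samples of 12 groups, grouped by the labels. The deposited values are log2 probeset signals that the authors had normalized, with a range of 1.02001 to 14.3746. Partek is named in the submitters' processing notes. How background was corrected and probes were normalized and summarized is not stated in the sources used. The labels give lonafarnib in different units in different fields, and µM is printed.

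Of 35557 probesets, 21789 had a single symbol in the platform annotation, 1621 had several and 12147 had no entry. Where a gene had several probesets (999 genes), the one with the highest mean was used. Limma 3.58.1 in R 4.3.3 (jsonlite 2.0.0) fitted 12 group means (lmFit, then eBayes) and tested 23 comparisons, on 22 residual degrees of freedom plus 6.6986 from the prior. The Benjamini-Hochberg adjustment of the two-sided p ran over 19938 genes, with a threshold of 0.05. Replicates are described as separate plates of a line, so p-values measure the spread between plates. Precision is limited by the number of arrays. Figures were drawn with matplotlib 3.10.9 in Python 3.11.15.

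The members and the 7 pathway and 5 marker lists were chosen with earlier results of these data known, so no list test was run. Of each pathway list at most 4 genes were eligible to be named: the 2 called most often as rising and the 2 as falling from the start. Srebf1, Srebf2, Insig1, Mid1ip1 and Nr1h3 were added, and so were the 3 genes most like each member. Replicate numbers in the labels did not pair the arrays: of 32 same-numbered pairs within a course, deviations from the group means correlated at -0.183 to 0.164, and 2 pairs were over 0.1.

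On simulated data with 200 genes changed, the Bin-2 nilotinib midpoint comparison found 55.2% of the genes moved 1.5-fold, 85.1% of those moved 2-fold and 100% of those moved 4-fold, and 7 unchanged genes of the 19938 were called. The 8093 nilotinib end comparison, with 2 end arrays, found 47.8%, 83.6% and 98.5%, and called 11 unchanged genes. In the measured data 692 and 8866 genes were called in these comparisons, and the simulated noise was independent between genes. The simulated shares therefore do not carry over to the measured data. Alternatives were scaling between arrays, a filter on dim genes, the prior, the arrays in the fit, the probesets, a replicate block, marker lists as covariates and each array left out in turn. Leaving out both nilotinib end arrays of 8093 was added after seeing the data.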

Additional observations from a re-analysis of the deposited data

Results flagged for a closer look

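The changes of the members differed between the lines in 17 tests of that difference, given as the change in Bin-2 minus that in 8093 (log2 ± SE, limma). At the nilotinib midpoint Scd1 differed by -1.80 ± 0.34 (adjusted p = 0.000162), where it fell in Bin-2 and was not called in 8093. The changes of Acaca (0.99 ± 0.16), Scd2 (0.76 ± 0.15), Elovl6 (0.69 ± 0.15) and Fads2 (0.60 ± 0.18, adjusted p = 0.0159) were lower in 8093. The Fads2 difference was lost without nilotinib start array 1 (0.52) or midpoint array 2 (0.43) of 8093. It was also lost with quantile normalization (0.38) and with the interquartile range scaled (0.32).

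At the nilotinib end the differences were 2.32 ± 0.16 for Elovl6 (adjusted p = 1.21e-12), 1.19 ± 0.36 for Scd1, 1.11 ± 0.17 for Acaca, 0.82 ± 0.14 for Fasn, 0.78 ± 0.20 for Fads2, 0.75 ± 0.16 for Scd2 and -1.12 ± 0.15 for Fads1 (adjusted p = 4.95e-07). All 7 rest on the 2 arrays of 8093 in which the pre-B markers averaged 6.25 and the mast cell markers 11.29. Without end array 1 of 8093 the differences of Scd1 (1.12) and Fads2 (0.52) were lost.

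At the lonafarnib midpoint Scd1 differed by -2.49 ± 0.34 (adjusted p = 2.43e-05) and Elovl5 by -0.68 ± 0.19 (adjusted p = 0.0315), and the Elovl5 difference was lost in 7 of the 12 fits that left out an array (-0.59 to -0.68). At the lonafarnib end Scd1 differed by -3.14 ± 0.36 (adjusted p = 6.13e-07), Acaca by -0.95 ± 0.17 and Fads1 by -0.85 ± 0.15 (adjusted p = 0.000411). Doses and days differ between the lines.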

How the results depend on the processing

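Of the values of single members in all comparisons, those of Scd1 and Scd2 from the start kept their direction and call under both scalings between arrays. In fits that left out 1 array, 1592 of 1656 values of members kept direction and call, 51 lost the call, 13 gained it and none reversed. With 2 end arrays in each 8093 course, a fit without 1 of them assumes that the lone array varies like the other groups. The number of called members ranged from 3 to 6 for the 8093 nilotinib end against midpoint, from 1 to 2 for the lonafarnib midpoint difference between lines, from 1 to 3 for the drug difference at the Bin-2 end, from 2 to 4 for the Bin-2 lonafarnib end (2 without start array 3), and from 6 to 7 for the 8093 nilotinib midpoint. With all arrays 5 members were called at the Bin-2 lonafarnib end, a count that none of its 6 fits without 1 array reached. Without both 8093 nilotinib end arrays, a setting added after seeing the data, 170 of 171 values were the same and 1 gained the call.

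Quantile normalization gave 9 called members for the 8093 nilotinib end against midpoint (Scd2, Acaca, Elovl5 and Fads2 gained the call) and 1 for the drug difference at the Bin-2 end, and Fads1 at the 8093 nilotinib midpoint reversed to 0.00052. With it 39.6% of all genes were called for that end against midpoint and 8.31% for that drug difference. With the interquartile range scaled the counts were 4 at the 8093 nilotinib midpoint, 8 for its end against midpoint (Scd2, Elovl5 and Fads2 gained the call), 2 at the Bin-2 lonafarnib midpoint, 3 for the 8093 midpoint and 1 for the Bin-2 end between drugs, and 1 for the lonafarnib midpoint between lines. In the same order, 52.2%, 43%, 13.9%, 27.6%, 8.42% and 4.31% of all genes were called under that scaling. At the 8093 nilotinib midpoint, that scaling reversed Elovl5 (0.012), Slc25a1 (0.30), Tecr (0.10) and Cpt1a (0.33). With only the arrays of the courses compared, 3 members were called for the 8093 nilotinib end against midpoint, 2 at the Bin-2 lonafarnib end, and 1 each for the Bin-2 midpoint (Fads2) and end between drugs and the lonafarnib midpoint between lines. With every probeset tested, 1 was called for the Bin-2 end between drugs.

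Replicate numbers did not pair the arrays. With the replicate block, by number or by letter, 1 member was called for the Bin-2 end between drugs and 1 for the lonafarnib midpoint between lines, where the fit without it called 2 each, and no other count of members moved by more than 1.5 times.

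With the fibroblast list as a covariate 2 members were called at the 8093 nilotinib midpoint, 3 for its end against midpoint, 0 at the midpoints of Bin-2 under nilotinib and lonafarnib, 1 for the Bin-2 lonafarnib end against midpoint, 0 for the 8093 midpoint and 1 for the Bin-2 end between drugs, and 2 (nilotinib) and 1 (lonafarnib) for the midpoints between lines. In this fit calls over all genes fell too. They went from 9988 to 1380 at the 8093 nilotinib midpoint and from 10871 to 3725 for its end against midpoint. At the Bin-2 midpoints they went from 692 to 135 (nilotinib) and from 3287 to 96 (lonafarnib), and for the 8093 midpoint between drugs from 5334 to 588. Fads2 reversed at the 8093 nilotinib midpoint (0.051) and between drugs there (0.0030), as did Rxra at the 8093 nilotinib midpoint (-0.33) and Me1 (-0.085) and Cyb5a (0.24) at the Bin-2 lonafarnib midpoint. With the macrophage and mast cell lists as covariates 0 members were called at any time against the start in 8093 or in Bin-2 under nilotinib, 3 for the 8093 nilotinib end against midpoint, 3 at the Bin-2 lonafarnib end, 1 for the Bin-2 midpoint between drugs (Fads2), and 0 for the 8093 midpoint, 8093 end and Bin-2 end between drugs and for both nilotinib times and the lonafarnib midpoint between lines. Calls over all genes fell as well, to 27 at the 8093 nilotinib end, against 8866 without these covariates. In that fit Fads2 reversed at the 8093 nilotinib midpoint (0.88) and end (0.98), between drugs in 8093 (0.37 and 0.44) and between lines (-0.50 and -0.096), and Fads1 between drugs at the 8093 end (-0.27). At the 8093 nilotinib midpoint Acss2 (-0.82), Hacd4 (-0.15), Degs1 (-0.34), Rxra (-0.28), Srebf1 (0.023), Plin2 (-0.59) and Cd36 (-0.56) reversed. At its end Cyb5r3 (-0.89), Insig2 (-0.089), Plin2 (-1.45), Dbi (0.62), Cd36 (-1.04), Slc27a1 (0.10), Decr1 (-0.54) and Mid1ip1 (-0.47) did, and at the Bin-2 nilotinib end Acss2 (-0.091), Hacd4 (-0.38), Degs1 (-0.12), Cyb5r3 (-0.59), Rxra (-0.15) and Plin2 (-0.39). These lists move with the groups, and the cause of the changed counts was not tested.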
